A study of Mus musculus with 9 samples.

Results

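The genes described here encode the nuclear-encoded subunits of respiratory complexes I, II and III and of ATP synthase, with a few assembly factors that share their names. They were taken by name, as the non-control probes whose gene name in the array files starts with Nduf, Uqcr or Atp5 or is Sdha, Sdhb, Sdhc or Sdhd. The rule took 107 of 41174 probes. Of these, 105 passed a filter on dim signal, which asked that some group show the probe well above background on each of its 3 arrays, and the 2 that did not are second probes of Ndufs4 and Ndufs5. The 105 probes stand for 70 genes, all of which were tested among 12018 genes in all. There were 36 genes of complex I, 4 of complex II, 8 of complex III, 15 of ATP synthase, 5 assembly factors of complex I, and Ndufa4 and Atp5s, which the name rule takes although they are not counted as subunits of these complexes today. Atp5f1, Atp5s and Atp5sl are the array's names for Atp5pb, Dmac2l and Dmac2 in RefSeq.

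Total RNA of C57Bl/6 mouse pro-B cells transformed with Abelson virus (A-MuLV) was labelled with Cy3 and read on 9 one-colour arrays. All groups carried the genotype Ebf1fl/fl;RERTCre, a floxed Ebf1 gene with a Cre recombinase that 4-hydroxytamoxifen (4-OHT) activates, and all received 2 µM 4-OHT. EBF1ΔC cells (3 arrays) and EBF1wt cells (3 arrays) carried pmys-EBF1ΔC-IRES-GFP or pmys-EBF1wt-IRES-GFP, got 4-OHT 24 h after the virus, were sorted for GFP at day 5 and were used after more than 2 further weeks of culture. Mock cells (3 arrays) had no EBF1 put back and were taken 4 days after 4-OHT, ahead of cell death. RERTCre is not restricted to B cells, the retroviral promoter and not the Ebf1 locus drives the replacement protein, and the labels do not say whether the cells were 1 clone, or whether each replicate was a culture of its own. Without that, p-values speak only for the spread among these arrays, which may be technical. The source name of EBF1wt replicate 3 omits 4-OHT, which its description gives, and the array was kept in its group.

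The respiratory chain passes electrons from NADH, through complex I, and from succinate, through complex II, to ubiquinone, complex III and cytochrome c, while complexes I and III pump protons across the inner mitochondrial membrane. ATP synthase lets the protons flow back through its rotating c ring and uses that flow to make ATP in its F1 head. Nearly all subunits are encoded in the nucleus and are made by every nucleated cell, and proliferating lymphoid progenitors use both this route and glycolysis.

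The 75th percentile of the signal, to which each array was scaled, ranged between 414 and 501 in EBF1ΔC, between 474 and 508 in EBF1wt and between 384 and 480 in Mock. The share of probes well above background was 51.4% to 53.4% in EBF1ΔC, 50.8% to 51.2% in EBF1wt and 54.3% to 56.9% in Mock. The Ebf1 mRNA probe averaged 3.80 ± 0.06 log2 in EBF1ΔC, 3.06 ± 0.17 in EBF1wt and 1.46 ± 0.28 in Mock (SD, n = 3 each), and its position relative to the deleted part and the retroviral insert is not known. Of 14 pro-B cell markers, Ebf1 itself among them, 13 were tested and these were well above background on all 9 arrays, with a higher summed level in both EBF1 groups (values with the other markers at the end). Mock arrays had slides and a scan day of their own, and Mock cells differed from the other groups in time after 4-OHT, transduction and sorting, so these cannot be told apart from the group in any comparison with Mock. The EBF1ΔC and EBF1wt arrays shared 1 scan day, and 2 of their 4 slides held an array of each. The number of arrays limits the precision.

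Genes of all 4 complexes were higher in both EBF1 groups than in Mock, by small amounts. At a Benjamini-Hochberg adjusted p under 0.05 in limma, fitted to all 12018 genes, 57 of the 70 genes were higher in EBF1ΔC than in Mock, where 37.5% of all genes tested were higher, and 0 were lower, where 26.7% of all genes were (64.2% in either direction). In EBF1wt, 57 of the 70 were again higher than in Mock, against 39.5% of all genes, and 0 were lower, against 27% of all genes (66.6% in either direction). At an unadjusted p under 0.05 the lower count was also 0 in both. Each comparison uses the same 3 Mock arrays. The median difference over the 70 genes was 0.43 log2 in EBF1ΔC and 0.42 log2 in EBF1wt, where the median over all genes was 0.10 and 0.12. Only 2 of the 70, Ndufs8 and Sdhb, were at least 2-fold higher, in both EBF1 groups, and 6.24% (EBF1ΔC) and 6.6% (EBF1wt) of all genes were. None was 2-fold lower, against 11.8% and 12.8% of all genes.

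The size and the count depended on how the arrays were scaled. With quantile normalization, with normexp background correction followed by quantile normalization, and with the log2 values the authors deposited, 34, 34 and 35 of the 70 genes were higher in EBF1ΔC than in Mock and 34, 36 and 34 in EBF1wt, where 31.2% to 33.9% and 33% to 36.1% of all genes were. The median difference then lay between 0.19 and 0.22 log2 in EBF1ΔC and between 0.22 and 0.25 in EBF1wt, which is 0.11 to 0.17 and 0.12 to 0.18 above the median of all genes, in place of 0.33 and 0.30. Scaling to the median of each array moved all genes up together, by a median of 0.65 log2 in EBF1ΔC and 0.83 in EBF1wt, and left the distance of the 70 genes from that median at 0.33 and 0.30. It called 68 and 70 of the 70 genes higher, against 60.7% and 68.5% of all genes. Under all 5 scalings the difference stayed above 0 for 55 of the 70 genes in EBF1ΔC and for 56 in EBF1wt. The matching share of all genes was not computed, and the median of all genes was itself above 0 under each scaling. Under all 5 scalings 29 of the 70 genes were called higher in each EBF1 group (41.4%), against 26.6% (EBF1ΔC) and 28.6% (EBF1wt) of all genes.

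**Figure D1:**
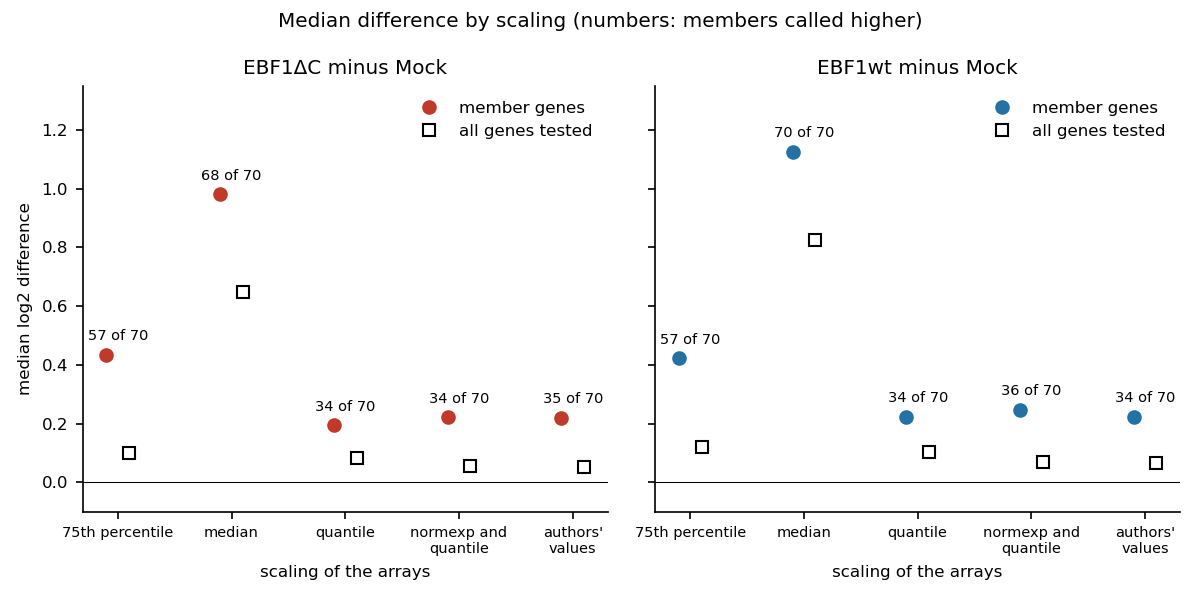
Median log2 difference from Mock (y axis) over the 70 member genes (filled points) and over all 12018 genes tested (open squares) under 5 scalings of the arrays (x axis), for EBF1ΔC on the left and EBF1wt on the right, with the number of members called higher printed above each point. The member median lies above the median of all genes under each scaling, by 0.11 to 0.33 in EBF1ΔC and by 0.12 to 0.30 in EBF1wt.

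These genes were bright on the arrays, and bright genes were higher in the EBF1 groups as a whole. Of the 70 genes, 62 fell in the brightest of 5 equal bins of all genes by mean level over the 9 arrays. In that bin the median difference over all 2404 genes was 0.28 log2 in EBF1ΔC and 0.30 in EBF1wt, and 54.2% and 55.7% of them were higher than in Mock. Of the 62 members there, 51 were higher in each EBF1 group, with medians of 0.43 and 0.42 log2. The dimmest bin, which held no member, had medians of -0.55 and -0.71 log2. How far brightness accounts for the members' differences was not tested.

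On single arrays the picture was even within groups. The level of each gene was set to its mean over the 9 arrays, and the median over the 70 genes was then 0.16, 0.23 and 0.09 log2 on the EBF1ΔC arrays, 0.18, 0.13 and 0.13 on the EBF1wt arrays and -0.24, -0.27 and -0.38 on the Mock arrays. Each EBF1ΔC and EBF1wt array lay above each Mock array, and the EBF1ΔC and EBF1wt arrays overlapped. Gene by gene, 60 of 70 had all EBF1ΔC arrays above all Mock arrays, 1 (Atp5s) had them all below and 9 overlapped, against 41.4% of all genes above and 30.2% below. In EBF1wt 60 were above, 0 below and 10 overlapped, against 42.9% and 29.7% of all genes.

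**Figure D2:**
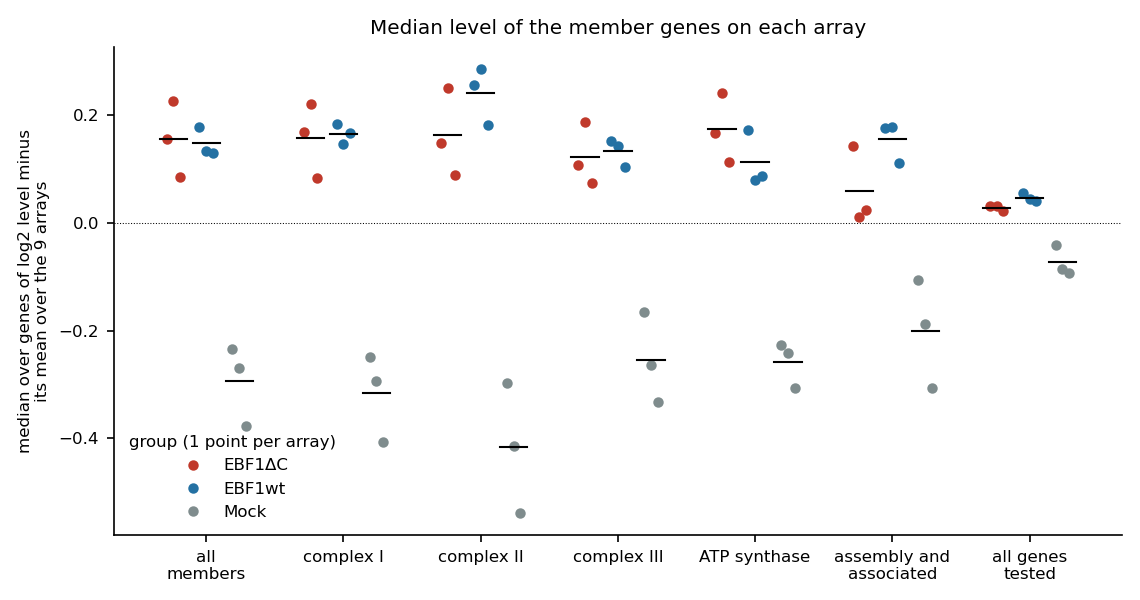
Median over genes of the log2 level minus its mean over the 9 arrays (y axis) for the member genes, for each complex and for all genes tested (x axis), with 1 point per array and a bar at the group mean. All Mock points of the members lie below 0, between -0.24 and -0.38, and the EBF1ΔC and EBF1wt points lie between 0.09 and 0.23.

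In complex I, 30 of 36 subunits were higher in EBF1ΔC than in Mock and 30 of 36 in EBF1wt, with medians of 0.50 and 0.47 log2. The 7 catalytic core subunits, which carry the flavin and the iron-sulphur clusters that lead electrons to ubiquinone, had 6 and 7 genes higher, with medians of 0.37 and 0.52. Of the 29 accessory subunits, which surround the core, 24 and 23 were higher, with medians of 0.50 and 0.44. Under all 5 scalings, 18 of the 36 stayed higher in EBF1ΔC and 18 in EBF1wt (50% each, against 26.6% and 28.6% of all genes), and 14 in both (38.9%, against 22.1%).

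Ndufs8 encodes an iron-sulphur protein of the core, close to the ubiquinone site. Its probe lies at chr19:3911200-3911568 on the minus strand (mm9, the build of the files), a span longer than the 60 bases of the probe, so the probe crosses at least 1 splice junction. The log2 level (above the array's 75th percentile) was 3.57, 3.50 and 3.34 in EBF1ΔC, 3.46, 3.49 and 3.38 in EBF1wt and 2.32, 2.21 and 2.28 in Mock. All 6 arrays with EBF1 lay more than 1 log2 above all 3 Mock arrays. The difference was 1.20 log2 in EBF1ΔC (2.3-fold, limma adjusted p = 8.55e-06) and 1.18 log2 in EBF1wt (2.26-fold, limma adjusted p = 8.64e-06, SE 0.08). Over the 5 scalings it ranged from 1.04 to 1.75 in EBF1ΔC and from 0.99 to 1.88 in EBF1wt. The probe is shown because it, with that of Sdhb, reported the largest rise among the 70 genes in both EBF1 groups.
Ndufs8 probe: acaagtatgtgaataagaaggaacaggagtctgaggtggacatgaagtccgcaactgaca

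Ndufs5, an accessory subunit with paired cysteines on the intermembrane-space side, came next in complex I. It stood at 7.43, 7.14 and 7.07 log2 in EBF1ΔC, at 7.31, 7.25 and 7.23 in EBF1wt and at 6.30, 6.33 and 6.25 in Mock, without overlap. The difference was 0.92 log2 in EBF1ΔC (limma adjusted p = 9.47e-05) and 0.97 in EBF1wt (limma adjusted p = 6.56e-05). Ndufb6 and Ndufb5, accessory subunits of the membrane arm, and Ndufa8, another accessory subunit with paired cysteines, rose as well. Their differences were 0.79, 0.87 and 0.87 log2 in EBF1ΔC and 0.82, 0.70 and 0.75 in EBF1wt, and each was higher under all 5 scalings. Ndufs7, which carries the last iron-sulphur cluster before ubiquinone, was 0.37 log2 higher in EBF1ΔC (limma adjusted p = 0.00469) and 0.53 higher in EBF1wt (limma adjusted p = 0.000628). In EBF1ΔC that call was absent for Ndufs7 with quantile normalization, with normexp and quantile and with the authors' deposited values (0.11, 0.01 and 0 log2).

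In complex I, 6 genes did not pass the test in each comparison. Ndufa7, Ndufv3, Ndufc1 and Ndufa1 missed it in both, Ndufc2 and Ndufs1 missed it in EBF1ΔC, and Ndufa2 and Ndufa3 missed it in EBF1wt. Ndufa1, a small accessory subunit needed to build the membrane arm, stood at 5.80, 5.84 and 5.87 log2 in EBF1ΔC, at 5.87, 5.61 and 5.52 in EBF1wt and at 5.70, 5.74 and 5.48 in Mock. The EBF1wt and Mock arrays overlapped for this gene, and its difference from Mock was 0.19 and 0.03 log2. With normexp and quantile normalization and with the authors' deposited values Ndufa1 was lower in EBF1wt than in Mock, by -0.38 and -0.40 log2 (limma adjusted p = 0.0056 and 0.00725). It was called higher in both groups with median scaling (0.74 and 0.73 log2), and in EBF1ΔC with the mean of its probes (0.25 log2, adjusted p = 0.0336).

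All 4 genes of complex II, succinate dehydrogenase, were higher in EBF1wt than in Mock, and 3 of the 4 in EBF1ΔC. Complex II is also an enzyme of the tricarboxylic acid cycle, and it has no subunit from the mitochondrial genome. Sdhb, its iron-sulphur subunit, stood at 4.89, 4.82 and 4.67 log2 in EBF1ΔC, at 4.62, 4.61 and 4.68 in EBF1wt and at 3.72, 3.58 and 3.35 in Mock. No EBF1ΔC or EBF1wt array reached down to a Mock array. The difference was 1.24 log2 in EBF1ΔC (2.36-fold, limma adjusted p = 2.61e-05) and 1.08 in EBF1wt (2.12-fold, limma adjusted p = 4.93e-05), and over the 5 scalings it ranged from 1.08 to 1.79 and from 0.89 to 1.79. The Sdhb probe (chr4:140522514-140527081, plus strand, mm9) also crosses at least 1 splice junction.
Sdhb probe: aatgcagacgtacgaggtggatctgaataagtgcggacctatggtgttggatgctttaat

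Sdha, the flavoprotein that binds succinate, was 0.71 log2 higher in EBF1ΔC and 0.86 higher in EBF1wt, with means of 2.70 ± 0.09 and 2.85 ± 0.06 against 1.99 ± 0.17 in Mock (SD, n = 3 each). It was higher under all 5 scalings, while the mean of its 3 probes gave -0.17 and -0.15 log2, because 1 of them went the other way as described below. Sdhd and Sdhc anchor the complex in the membrane. Sdhd stood at 5.38, 5.72 and 5.52 log2 in EBF1ΔC, at 5.66, 5.73 and 5.52 in EBF1wt and at 5.18, 5.18 and 5.02 in Mock. It was 0.42 and 0.51 log2 higher (limma adjusted p = 0.00812 and 0.00282), and it did not pass the test with quantile normalization, with normexp and quantile, or with the authors' deposited values. Sdhc was at 3.49, 3.61 and 3.46 in EBF1ΔC, at 3.61, 3.62 and 3.52 in EBF1wt and at 3.46, 3.25 and 3.11 in Mock. Its difference was 0.25 log2 in EBF1ΔC (limma adjusted p = 0.0529) and 0.31 in EBF1wt (limma adjusted p = 0.021). The EBF1wt call of Sdhc was absent with quantile normalization (0.12 log2) and ended without Mock replicate 2 or 3 or without EBF1wt replicate 1 or 2 (adjusted p = 0.0585, 0.0738, 0.0575 and 0.0522), and without Mock replicate 1 the EBF1ΔC difference was called (0.34 log2, adjusted p = 0.0122).

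In complex III, 5 of 8 genes were higher in EBF1ΔC than in Mock and 6 of 8 in EBF1wt, with medians of 0.35 and 0.42 log2. Uqcrb, which lies near a ubiquinone site, Uqcrfs1, the Rieske iron-sulphur protein, and Uqcrq, a small accessory subunit, were the 3 that stayed higher under all 5 scalings in both groups. Their differences were 0.82, 0.55 and 0.64 log2 in EBF1ΔC and 0.81, 0.59 and 0.57 in EBF1wt. Uqcrh, the acidic hinge protein that contacts cytochrome c1, stood apart. Its levels were 7.31, 7.40 and 7.41 log2 in EBF1ΔC, 7.40, 7.25 and 7.34 in EBF1wt and 7.43, 7.38 and 7.43 in Mock. Those groups lay within 0.2 log2 of one another and were not called in either comparison (-0.04 log2, limma adjusted p = 0.648, and -0.08 log2, limma adjusted p = 0.332), but median scaling put Uqcrh higher by 0.51 and 0.62 log2. Uqcr11, another small accessory subunit, was likewise not called at 0.08 and 0.05 log2, and was below 0 with quantile normalization, with normexp and quantile and with the authors' deposited values.

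In ATP synthase, 14 of 15 genes were higher in EBF1ΔC than in Mock and 13 of 15 in EBF1wt, with medians of 0.44 and 0.38 log2. Under all 5 scalings, 4 of 15 stayed higher in EBF1ΔC (26.7%, against 26.6% of all genes) and 3 in EBF1wt (20%, against 28.6%). Of the 15, 2 (Atp5g1 and Atp5o, a peripheral stalk subunit) stayed higher under all 5 scalings in both groups, against 22.1% of all genes tested and 23 of the 70 members (32.9%). By part of the machine, the 5 genes of the F1 head and central stalk had 4 and 3 higher, the 4 of the peripheral stalk had 4 and 4, the 3 of the c ring had 3 and 3, and the 3 small membrane subunits had 3 and 3. For Atp5k, 1 of these small membrane subunits, the array annotation places the only tested probe on chromosome Y, whereas its RefSeq promoter window lies on chromosome 5. Atp5b, the catalytic beta subunit, was 0.47 log2 higher in EBF1ΔC (limma adjusted p = 0.00207), under all 5 scalings, and 0.26 higher in EBF1wt (limma adjusted p = 0.0325). The EBF1wt call was absent with quantile normalization, with normexp and quantile and with the authors' deposited values (0.16 to 0.18 log2), and it ended without Mock replicate 2 or 3 or EBF1wt replicate 1 or 3 (adjusted p = 0.0663, 0.099, 0.056 and 0.11).

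Atp5d and Atp5e encode the delta and epsilon subunits of the central stalk. Atp5d was called in neither group (0.09 log2, limma adjusted p = 0.37, and 0.11 log2, limma adjusted p = 0.285). Atp5e was 0.24 log2 higher in EBF1ΔC (limma adjusted p = 0.0445) and 0.08 in EBF1wt (limma adjusted p = 0.453). The Atp5e call ended on leaving out any array but EBF1ΔC replicate 3 (adjusted p between 0.0532 and 0.137), normexp and quantile or the authors' deposited values removed it too, and quantile normalization turned it to -0.01. Atp5d was higher in both with median scaling (0.64 and 0.81 log2).

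The c ring is built from 1 mature protein that 3 genes, Atp5g1, Atp5g2 and Atp5g3, encode with different import signals. Atp5g1 stood at 4.99, 5.02 and 4.94 log2 in EBF1ΔC, at 5.18, 4.78 and 4.97 in EBF1wt and at 4.39, 4.28 and 4.35 in Mock. Atp5g2 stood at 6.76, 6.77 and 6.58 in EBF1ΔC, at 6.75, 6.73 and 6.66 in EBF1wt and at 6.31, 6.09 and 6.14 in Mock. Atp5g3 stood at 7.45, 7.48 and 7.36 in EBF1ΔC, at 7.48, 7.29 and 7.33 in EBF1wt and at 6.88, 7.04 and 6.86 in Mock. In all 3 genes the EBF1ΔC and EBF1wt arrays overlapped and lay above the Mock arrays. The differences from Mock were 0.64, 0.52 and 0.50 log2 in EBF1ΔC (limma adjusted p = 0.000748, 0.00107 and 0.00102) and 0.64, 0.53 and 0.44 in EBF1wt (limma adjusted p = 0.000744, 0.000917 and 0.00194). Atp5g1 was called under all 5 scalings, Atp5g2 lost its call in both groups with normexp and quantile normalization and with the authors' deposited values, and Atp5g3 lost it in both with normexp and quantile and in EBF1ΔC with the authors' values.

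The 3 c ring probes are shown because the genes share a mature protein, so that each value rests on the letters of its own probe. They lie at chr11:95934924-95934983, chr15:102493444-102493503 and chr2:73746519-73746578, all on the minus strand (mm9). Binding of a probe to the other genes' transcripts was not tested.
Atp5g1 probe: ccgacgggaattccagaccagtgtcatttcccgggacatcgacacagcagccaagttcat
Atp5g2 probe: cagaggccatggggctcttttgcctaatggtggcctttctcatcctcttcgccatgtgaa
Atp5g3 probe: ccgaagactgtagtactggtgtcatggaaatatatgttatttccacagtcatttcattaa

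**Figure D3:**
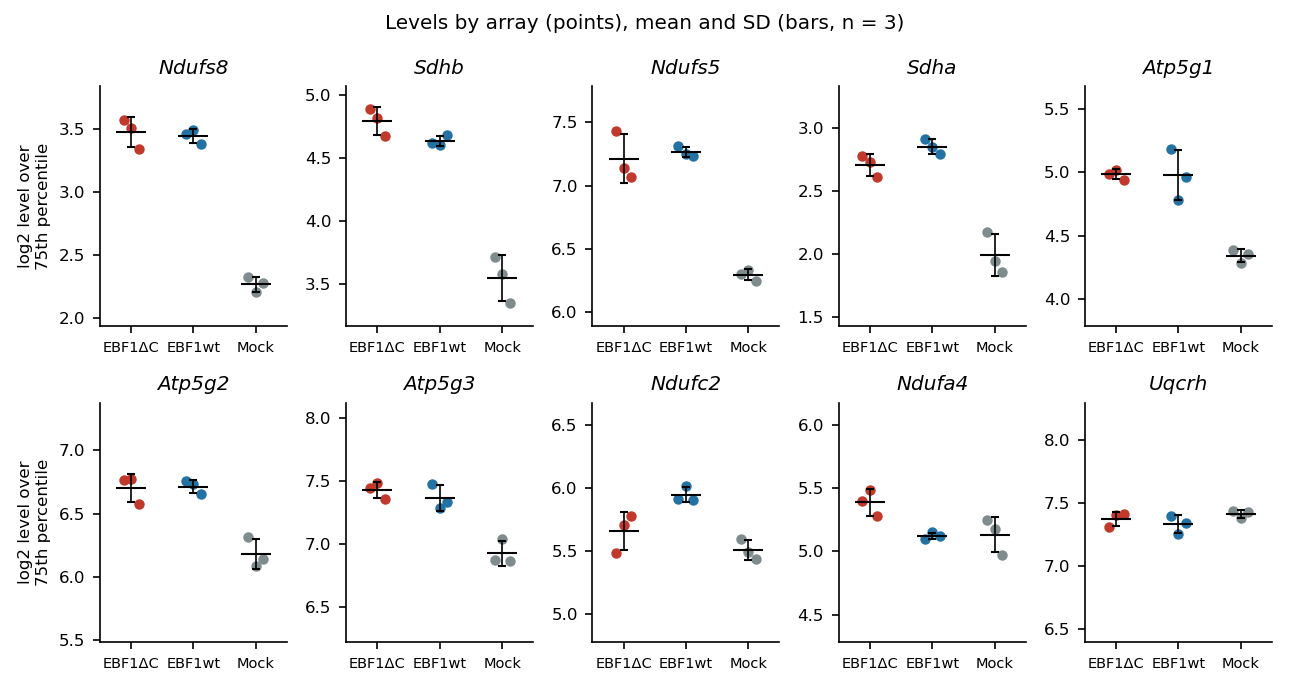
Log2 level relative to the 75th percentile of the array (y axis, the same span of values in each panel) by group (x axis) for 10 member genes, with 1 point per array and the mean with its SD (n = 3). In Ndufs8 and Sdhb the EBF1ΔC and EBF1wt arrays stand about 1 log2 above Mock, whereas the Uqcrh arrays of the 3 groups lie within 0.2 log2.

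The 5 complex I assembly factors gave 4 higher in each EBF1 group. Ndufaf4, which acts early in assembly, was 0.36 log2 higher in EBF1ΔC (limma adjusted p = 0.00556) and 0.64 in EBF1wt (limma adjusted p = 0.000249), and in EBF1ΔC the call was absent with quantile normalization, normexp and quantile, the authors' deposited values and the mean of its probes (0.18, 0.05, 0.01 and 0.19 log2). Atp5sl, the assembly factor now named Dmac2, was not called (-0.13 and -0.07 log2, limma adjusted p = 0.182 and 0.485) by its brighter probe. In EBF1ΔC it was called lower with quantile normalization (-0.23 log2, limma adjusted p = 0.0432).

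Ndufa4, once assigned to complex I and now to cytochrome c oxidase, stood at 5.40, 5.48 and 5.28 log2 in EBF1ΔC, at 5.10, 5.15 and 5.12 in EBF1wt and at 5.25, 5.18 and 4.97 in Mock. The EBF1ΔC arrays were the highest of the 9 and the EBF1wt arrays lay within the range of Mock. It was 0.25 log2 above Mock in EBF1ΔC (limma adjusted p = 0.0369; 0.02 to 0.08 and not called with quantile normalization, normexp and quantile and the authors' deposited values) and -0.01 in EBF1wt (limma adjusted p = 0.931), but quantile normalization and the authors' deposited values called it lower in EBF1wt (-0.24 and -0.24 log2, limma adjusted p = 0.0244 and 0.0464) and median scaling called it higher there (0.70 log2, limma adjusted p = 0.00681). The EBF1ΔC call ended without Mock replicate 2 or 3, EBF1wt replicate 1 or 3, or EBF1ΔC replicate 1 or 2 (adjusted p = 0.0593, 0.124, 0.0531, 0.0525, 0.0857 and 0.12). Atp5s, now Dmac2l, was the dimmest of the 70 and was not called (-0.28 log2 in EBF1ΔC, limma adjusted p = 0.116, and -0.04 in EBF1wt, limma adjusted p = 0.801), though without EBF1wt replicate 2 the EBF1ΔC difference was called lower (adjusted p = 0.0339), as it was with the mean of its probes or with only the 2 groups in the fit.

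**Figure D4:**
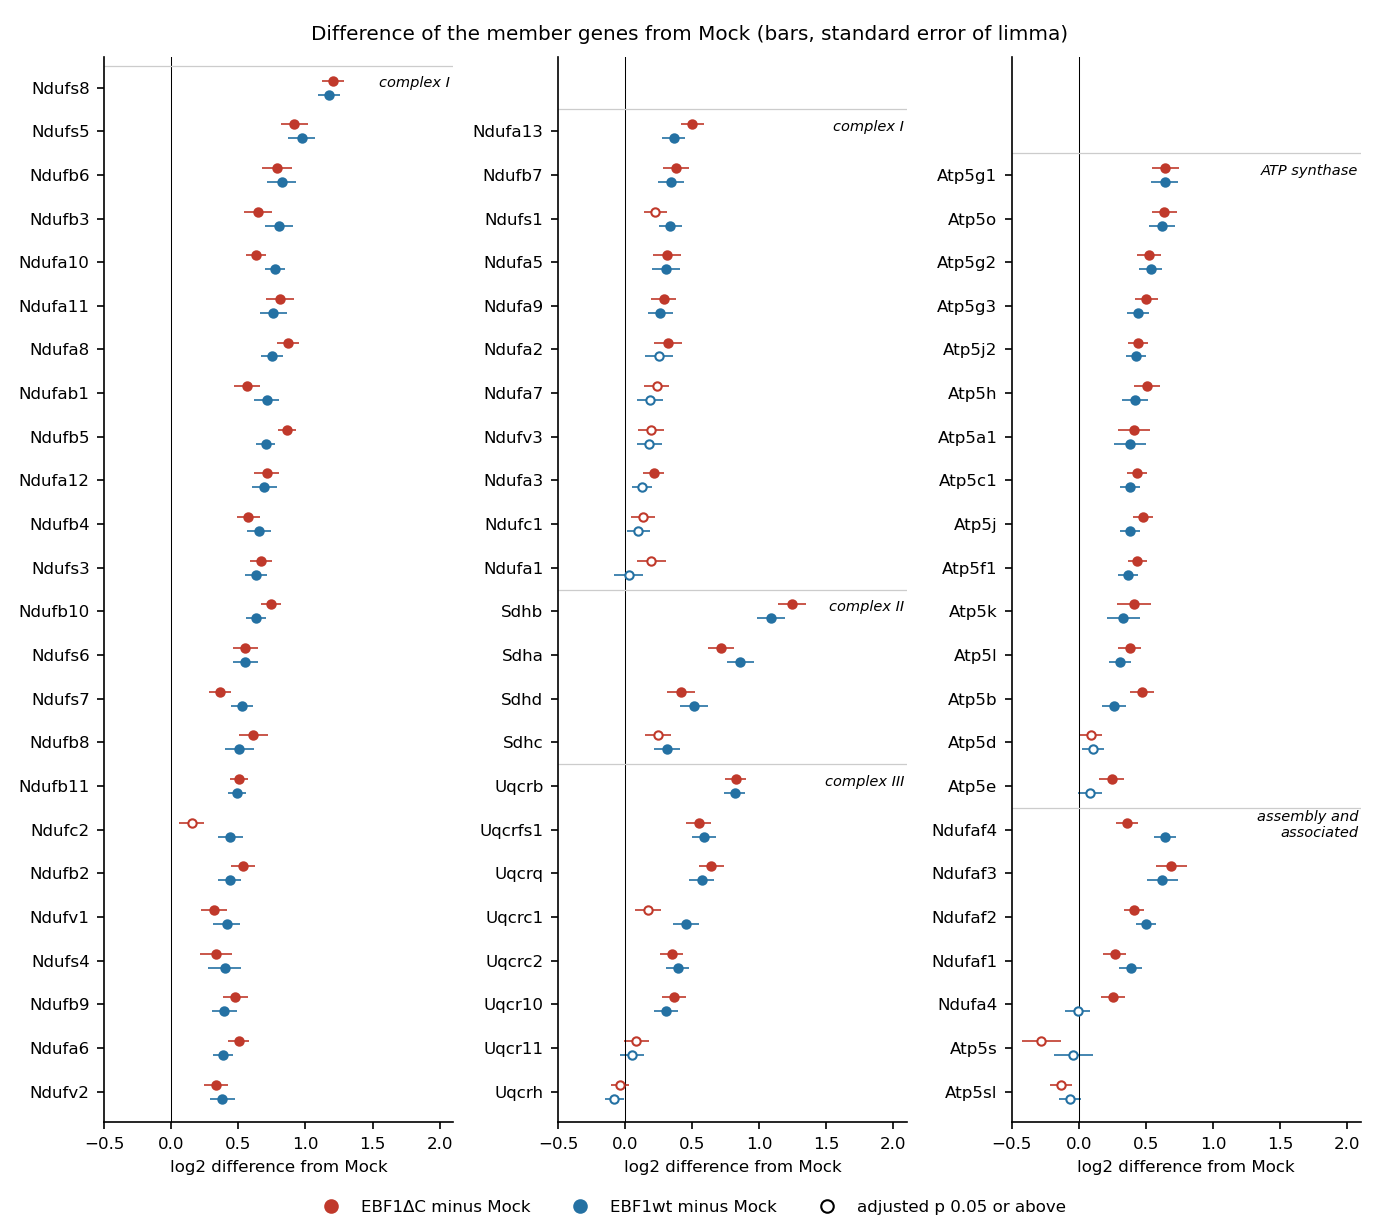
Log2 difference from Mock (x axis) of the member genes, grouped by complex and with 1 gene of complex I not shown, for EBF1ΔC (red, upper point) and EBF1wt (blue, lower point), with the standard error from limma. Filled points passed an adjusted p of 0.05. Most genes lie between 0.2 and 0.9 in both groups, Ndufs8 and Sdhb lie beyond 1, and Uqcrh, Atp5s and Atp5sl lie below 0 without passing.

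EBF1ΔC and EBF1wt cells have the same labelled steps of transduction, sorting and culture, and differ in the EBF1 protein they received. Culture is labelled only as more than 2 weeks, so its length may differ. The Ebf1 mRNA probe also read higher in EBF1ΔC than in EBF1wt, as given above. None of the 70 genes passed the test in limma: 0 were higher, where 4.12% of all genes were, and 0 were lower, where 4.96% were (9.08% in either direction). In the brightest of the 5 bins, which held 62 of the 70 genes, 2.5% of all genes were higher, and the share lower there was not computed. With a 2-fold minimum the counts were also 0, against 1.41% and 1.33% of all genes. At an unadjusted p under 0.05, 3 were higher and 3 lower (4.29% each), against 11.4% and 13.8% of all genes. The median difference was 0.02 log2 (-0.01 over all genes), and the 70 values ran from -0.29 to 0.26. Each 95% interval of limma lay within 1.5-fold either way, with a lowest bound of -0.57 and a highest of 0.47 log2, and 6 of the 70 intervals, which are not adjusted for the number of genes, left out 0. Median scaling moved the members and all genes down together, to -0.14 and -0.16 log2, and the counts of 0 held in both directions under every scaling and with each array left out.

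The 6 genes with an unadjusted p under 0.05 were Ndufa4, Atp5b and Ndufb5, on the higher side, and Ndufc2, Uqcrc1 and Ndufaf4, on the lower side. Ndufc2, an accessory subunit of the membrane arm, stood at 5.49, 5.71 and 5.78 log2 in EBF1ΔC, at 5.92, 6.02 and 5.91 in EBF1wt and at 5.60, 5.50 and 5.43 in Mock. The EBF1ΔC arrays lay below the EBF1wt arrays without overlap and overlapped Mock. The difference from EBF1wt was -0.29 log2 (95% interval -0.50 to -0.08, limma adjusted p = 0.0944), and it was -0.24 and -0.42 between the arrays of the 2 shared slides. Against Mock, Ndufc2 was 0.44 log2 higher in EBF1wt (limma adjusted p = 0.00317) and not called in EBF1ΔC (0.15 log2, limma adjusted p = 0.184), which became a call without EBF1ΔC replicate 1 (0.24 log2, adjusted p = 0.0483). The EBF1wt call was absent with quantile normalization, with normexp and quantile and with the authors' deposited values.

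Uqcrc1, a core protein of complex III, stood at 5.25, 5.19 and 5.37 log2 in EBF1ΔC, at 5.59, 5.64 and 5.43 in EBF1wt and at 5.25, 5.03 and 5.01 in Mock. It too was lower on each EBF1ΔC array than on each EBF1wt array, at -0.28 log2 (95% interval -0.51 to -0.06, limma adjusted p = 0.112), and at -0.27 and -0.18 within the shared slides. Against Mock it was 0.46 log2 higher in EBF1wt (limma adjusted p = 0.00326), a call absent with quantile normalization, normexp and quantile and the authors' deposited values (0.19 to 0.20 log2), and 0.17 in EBF1ΔC (limma adjusted p = 0.149; 0.36 and called with the mean of its probes). Ndufaf4 differed by -0.28 log2 (95% interval -0.47 to -0.09, limma adjusted p = 0.0745). Ndufa4 differed by 0.26 log2 (95% interval 0.06 to 0.47, limma adjusted p = 0.115), Atp5b by 0.21 (0.01 to 0.42, limma adjusted p = 0.188) and Ndufb5 by 0.16 (0.01 to 0.32, limma adjusted p = 0.182). Of the 70 genes, 5 had all EBF1ΔC arrays above all EBF1wt arrays, 7 had them below and 58 overlapped, against 13.4% and 17.3% of all genes above and below.

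Probes of the same gene did not always move alike. Of the 26 genes with more than 1 tested probe, 8 had all probes higher than Mock in EBF1ΔC and 8 in EBF1wt, while 5 and 6 had probes called in opposite directions. The gene values above rest on the brightest probe. The probes that were lower came mostly from records other than RefSeq mRNAs, that is cDNA clones and Ensembl transcripts. There were 11 such probes for 10 genes, with a median of -0.22 log2 in EBF1ΔC and -0.36 in EBF1wt, against 0.44 and 0.38 for the RefSeq probes of the same genes. Of the 11, 5 were lower than Mock in EBF1ΔC (45.5%) and 6 in EBF1wt (54.5%), and over all genes 53.5% and 55.6% of 2178 such probes were. A call opposite to that of a RefSeq probe of the gene was found for 45.5% and 54.5% of the 11, against 16% and 18.8% of all such probes. Over all genes the RefSeq probes of the same genes also had lower medians than in the members, at 0.135 log2 in EBF1ΔC and 0.18 in EBF1wt.

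The pair of probes on Sdha and the pair on Ndufv2, a core iron-sulphur subunit of complex I next to the flavin, show the contrast. The Sdha clone probe stood at -2.96, -2.82 and -2.77 log2 in EBF1ΔC, at -2.94, -3.28 and -2.90 in EBF1wt and at -1.36, -1.06 and -1.15 in Mock. The Ndufv2 clone probe stood at -3.73, -3.80 and -3.58 in EBF1ΔC, at -3.97, -4.01 and -3.65 in EBF1wt and at -2.18, -1.69 and -1.84 in Mock. In both genes the clone probe was lower on each EBF1 array than on any Mock array, where the mRNA probe was higher. Both clone probes were well above background on all 3 arrays of each group. The clone probes were far dimmer than the mRNA probes, and the part of brightness in the contrast was not tested. The clone probes differed from Mock by -1.66 and -1.80 log2 in EBF1ΔC and by -1.85 and -1.97 in EBF1wt (limma adjusted p between 7.44e-06 and 2.05e-05). The mRNA probes of Sdha and Ndufv2 lie at chr13:74465756-74465815 and chr17:66438669-66438810, and the clone probes at chr13:74486662-74486720 and chr17:66442062-66442121, all on the minus strand (mm9). Whether the clone probes lie in exons was not tested here. The 4 probes are printed so that their different targets can be seen.
Sdha mRNA probe: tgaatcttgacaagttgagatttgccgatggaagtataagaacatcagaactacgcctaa
Sdha clone probe: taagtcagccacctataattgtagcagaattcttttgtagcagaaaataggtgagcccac
Ndufv2 mRNA probe: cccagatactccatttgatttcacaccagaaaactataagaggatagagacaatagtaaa
Ndufv2 clone probe: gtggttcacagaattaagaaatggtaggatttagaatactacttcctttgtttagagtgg

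Smaller shifts of the same kind were found for Atp5b, Atp5f1 (a peripheral stalk subunit) and Ndufb8 in both EBF1 groups, and for Atp5j2 in EBF1wt. In each gene 1 probe, on a clone or an Ensembl transcript, was lower than Mock in EBF1wt, by -0.88, -0.93, -0.36 and -0.39 log2. The 2 further probes of Atp5b were higher (0.75 and 0.79 log2), and the further probe of Atp5f1 was not called in EBF1wt (0.22 log2, limma adjusted p = 0.181). A second probe of Atp5sl, on a RefSeq mRNA, was -1.09 log2 in EBF1ΔC and -1.19 in EBF1wt, so that the mean of the 2 Atp5sl probes was called lower in both (-0.61 and -0.63 log2).

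**Figure D5:**
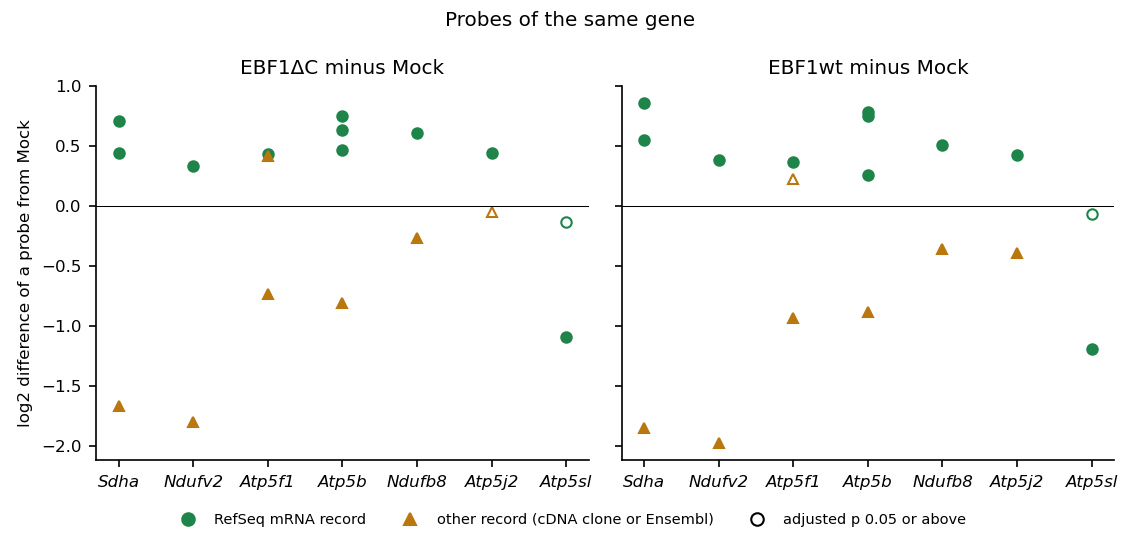
Log2 difference from Mock (y axis) of every tested probe of 7 member genes (x axis), for EBF1ΔC on the left and EBF1wt on the right, with circles for RefSeq mRNA records and triangles for other records. Filled symbols passed an adjusted p of 0.05 over all probes. In EBF1wt, triangles lie between -1.97 and -0.36 apart from 1 Atp5f1 probe at 0.22, and circles lie between 0.26 and 0.86 apart from those of Atp5sl.

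Promoters of respiratory genes are known for sites of NRF1, of ETS factors such as GABPA and of YY1. RefSeq promoter windows (GRCm38.p6, 250 bases before to 50 after the start) were matched by name for 61 of the 70 genes and not for 9, Sdhc, Uqcrb and Uqcrq among them. They were searched on both strands for 5 exact motifs, whose letters were chosen after the values were seen and took the place of longer forms of 3 of them. GCATGCGC (NRF1) was in 10 windows (16.4%, against 2.71% of all 32851 windows), CCGGAAG (ETS) in 13 (21.3%, against 8.86%) and AAGATGGCG (YY1) in 7 (11.5%, against 1.4%). At least 1 of those 3 was in 26 of the 61 windows (42.6%, against 12.1% of all windows). CACGTG (E-box) was in 7 (11.5%, against 7.15%) and CCCNNGGG (the core of the palindrome bound by EBF1) was in 7 (11.5%, against 13.7%). No matches of different motifs overlapped in the 61 windows. The windows of the 61 genes had a median GC content of 59%, against 52.7% over all windows. A match is a run of letters and not a measured binding site.

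The windows of the 2 genes with the largest differences from Mock each held 1 ETS match, that of Sdhb an NRF1 match as well. Those of Ndufa11 and Ndufs6, complex I accessory subunits, held NRF1 letters (2 overlapping matches, 1 on each strand) and a YY1 match. Ndufa11 was 0.81 log2 higher in EBF1ΔC and 0.76 in EBF1wt, and Ndufs6 was 0.55 higher in each. These last 2 were chosen for their matches after their values were seen. Genes called in neither EBF1 group held such letters too. The window of Uqcr11 had an NRF1 and an ETS match, and that of Uqcrh an ETS match. Ndufs5, Ndufb5 and Sdha were called higher in both EBF1 groups, and their windows held no NRF1, ETS or YY1 match. Whether the matches go with the differences from Mock was not tested. The printed windows are chr19:3912725-3913024 (Ndufs8, minus strand), chr4:140961021-140961320 (Sdhb, plus strand), chr17:56717512-56717811 (Ndufa11, plus strand) and chr13:73328433-73328732 (Ndufs6, minus strand), and capitals mark the matches.
Ndufs8: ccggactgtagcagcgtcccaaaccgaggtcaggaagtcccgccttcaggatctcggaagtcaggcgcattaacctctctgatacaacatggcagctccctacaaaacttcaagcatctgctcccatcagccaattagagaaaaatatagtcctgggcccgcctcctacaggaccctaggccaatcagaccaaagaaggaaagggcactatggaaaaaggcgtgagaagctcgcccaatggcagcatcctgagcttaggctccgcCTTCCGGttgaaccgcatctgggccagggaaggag
Sdhb: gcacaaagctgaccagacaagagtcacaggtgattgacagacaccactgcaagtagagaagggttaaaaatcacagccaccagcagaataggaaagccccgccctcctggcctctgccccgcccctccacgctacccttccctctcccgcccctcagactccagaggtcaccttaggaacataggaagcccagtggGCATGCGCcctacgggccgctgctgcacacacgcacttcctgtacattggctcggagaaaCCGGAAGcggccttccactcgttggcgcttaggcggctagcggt
Ndufa11: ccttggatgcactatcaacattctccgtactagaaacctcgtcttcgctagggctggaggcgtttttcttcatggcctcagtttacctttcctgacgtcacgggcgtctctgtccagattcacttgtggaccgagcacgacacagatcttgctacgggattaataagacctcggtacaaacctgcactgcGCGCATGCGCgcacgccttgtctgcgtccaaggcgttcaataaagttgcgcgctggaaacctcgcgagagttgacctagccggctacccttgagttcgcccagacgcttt
Ndufs6: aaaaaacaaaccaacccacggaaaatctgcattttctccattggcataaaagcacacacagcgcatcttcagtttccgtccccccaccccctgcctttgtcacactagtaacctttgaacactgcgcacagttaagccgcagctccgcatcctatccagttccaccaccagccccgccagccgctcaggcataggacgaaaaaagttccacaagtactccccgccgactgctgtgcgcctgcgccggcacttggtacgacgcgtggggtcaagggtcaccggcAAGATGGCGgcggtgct

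Among 18 tested regulators of mitochondrial gene expression, 7 were higher and 3 lower in EBF1ΔC than in Mock, and 10 were higher and 0 lower in EBF1wt. Those are 38.9% and 55.6% higher, against 37.5% and 39.5% of all genes. With quantile normalization, normexp and quantile and the authors' deposited values 4 to 5 were higher and 5 lower in EBF1ΔC, and 7 to 9 higher and 1 lower in EBF1wt. Genes of 3 of the searched factors, picked after their values were seen, were higher in both EBF1 groups. Nrf1 was higher by 0.57 and 0.55 log2, Gabpa by 0.60 and 0.63 and Yy1 by 0.36 and 0.41 (limma adjusted p between 0.000315 and 0.00802). Their values under the other scalings are not given here. Any link of these 3 genes to the motif matches or to the levels of the respiratory genes was not tested. Myc, a growth-driving transcription factor that binds the E-box, went apart in the EBF1 groups, at -0.80 log2 from Mock in EBF1ΔC and 0.69 in EBF1wt, and it differed between them by -1.49 log2 (limma adjusted p = 0.00601).

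The rest of the mitochondrial machinery was set beside these genes by lists, against 37.5% of all genes higher in EBF1ΔC and 39.5% in EBF1wt. The mitochondrial ribosome had 35 of 48 genes higher and 1 lower in EBF1ΔC, and 37 higher and 1 lower in EBF1wt, with medians of 0.40 and 0.48 log2 (72.9% and 77.1% higher). The tricarboxylic acid cycle had 9 of 17 enzymes higher and 1 lower in EBF1ΔC and 12 higher and 0 lower in EBF1wt, with medians of 0.26 and 0.39 (52.9% and 70.6% higher). Protein import had 12 of 21 higher in EBF1ΔC and 16 in EBF1wt (57.1% and 76.2%), and 0 lower by limma (0 also at an unadjusted p under 0.05). With quantile normalization, normexp and quantile and the authors' deposited values, import had 9, 6 and 6 higher and 1, 3 and 3 lower in EBF1ΔC. Of all genes 33.9%, 32.1% and 31.2% were then higher. In EBF1wt, import had 12, 11 and 11 higher and 0 lower under those settings. Complex IV, which receives the electrons of complex III, had 7 of 14 structural subunits higher and 1 lower in EBF1ΔC and 5 higher and 2 lower in EBF1wt, with medians of 0.30 and 0.25 (50% and 35.7% higher). With quantile normalization, normexp and quantile and the authors' deposited values, complex IV had 4 higher and 2 lower in EBF1ΔC and 4 to 5 higher and 2 to 3 lower in EBF1wt, with medians 0.01 to 0.05 and -0.03 to 0.03 from that of all genes. The tricarboxylic acid cycle then had 3 to 4 higher and 1 to 3 lower in EBF1ΔC, where its median lay -0.03 to 0.08 from that of all genes, and 8 to 9 higher in EBF1wt. Under the same 3 settings 23 to 24 (EBF1ΔC) and 28 to 30 (EBF1wt) genes of the ribosome were higher.

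Glycolytic genes differed from Mock mostly in the other direction, except with median scaling. Of 18 tested, 12 were lower (66.7%, against 26.7% of all genes) and 1 higher in EBF1ΔC. In EBF1wt 8 were lower (44.4%, against 27% of all genes) and 1 higher. The medians were -0.35 and -0.17 log2. With quantile normalization, normexp and quantile, and the authors' deposited values 12 to 14 and 10 to 11 were lower, against 23.7% to 25.1% and 22.6% to 24.5% of all genes. With median scaling 4 were higher and 4 lower in EBF1ΔC (60.7% and 10.8% of all genes), and 10 higher and 3 lower in EBF1wt (68.5% and 10.1% of all genes). The farthest was Slc2a3, a glucose transporter, at -6.10 log2 in EBF1ΔC and -5.87 in EBF1wt, where it was well above background on 2 of 3 arrays in each. Hk1, a hexokinase, was the 1 higher gene, at 1.11 and 1.21 log2. Between EBF1ΔC and EBF1wt, 0 of the 18 were called lower in limma, against 4.96% of all genes. The phosphofructokinase gene Pfkm was the 1 called higher, where 4.12% of all genes were. At an unadjusted p under 0.05, 8 were lower (44.4%, against 13.8% of all genes). With quantile normalization, normexp and quantile and the authors' deposited values 2 to 3 were called lower, against 4.52% to 4.83% of all genes.

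Marker lists are given by their counts and by their summed signal (linear, in units of each array's 75th percentile). Of the 13 tested pro-B cell markers, 11 were higher and 1 lower than Mock in EBF1ΔC and 10 higher and 1 lower in EBF1wt, with medians of 0.96 and 1.24 log2. That is 84.6% and 76.9% higher, against 37.5% and 39.5% of all genes. The list includes Ebf1 itself, the gene that is floxed in all groups and was put back by retrovirus in EBF1ΔC and EBF1wt. The pro-B sum was 951 to 982 in EBF1ΔC, 937 to 1010 in EBF1wt and 294 to 307 in Mock. Of 15 proliferation markers, 13 were higher than Mock in EBF1ΔC and 14 in EBF1wt (86.7% and 93.3%, against 37.5% and 39.5% of all genes). With quantile normalization, normexp and quantile and the authors' deposited values 9 to 10 and 9 to 11 were higher, against 31.2% to 33.9% and 33% to 36.1% of all genes. The proliferation sum was 624 to 685 in EBF1ΔC, 666 to 673 in EBF1wt and 421 to 481 in Mock. Of 9 erythroid markers, 4 were tested (Hba-a1, Hbb-bt, Hbb-bh1 and Epor) and all 4 were lower than Mock in both groups, while the other 5, Klf1 and Gata1 among them, did not pass the filter on dim signal in any group. All 4 were well above background on all 3 Mock arrays. Only 2 were so on all 3 arrays of EBF1ΔC, and 2 on all 3 arrays of EBF1wt, where 2 were so on none. Since passing in 1 group is enough for the filter, genes bright only in Mock could enter this count. The erythroid sum was 2.56 to 6.5 in EBF1ΔC, 3.4 to 6.21 in EBF1wt and 423 to 484 in Mock. Of 12 myeloid markers, 4 were tested, and 2 were higher and 2 lower than Mock in each EBF1 group. The myeloid sum, which the brightest genes dominate, was 9.3 to 18.7 in EBF1ΔC, 0.772 to 3.87 in EBF1wt and 6.73 to 7.34 in Mock. Of 12 T and NK cell markers, 6 were tested, with 3 higher and 2 lower than Mock in EBF1ΔC and 1 higher and 2 lower in EBF1wt. The T and NK sum was 10 to 11.8 in EBF1ΔC, 3.14 to 6.01 in EBF1wt and 5.48 to 6.36 in Mock. Of 9 stromal markers, 2 were tested, with 1 higher and 0 lower than Mock in EBF1ΔC and 0 higher and 1 lower in EBF1wt. The stromal sum was 0.254 to 0.291 in EBF1ΔC, 0.0384 to 0.0464 in EBF1wt and 0.0562 to 0.0808 in Mock. The part of any of these lists in the differences of the respiratory genes was not tested. In such bulk samples, fewer cells of a type and less RNA per cell cannot be told apart.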

How the data were processed

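Per the file headers, the authors deposited Agilent Feature Extraction output (10.5.1.1 in the headers, 9.1 per the submitters' processing notes) with the processed intensity of each spot (background-subtracted, not normalized between arrays) and its raw and local background intensity. They also deposited log2 values of unstated normalization. Here each array's log2 processed intensity was set against its own 75th percentile, spots flagged as outliers (73 to 163 per array) were left out, spots of a probe were averaged, and 22357 probes passed the filter on dim signal. The brightest probe stood for a gene. Of the 107 member probes, 94 were matched to RefSeq by accession and 13 by name. Groups came from the sample titles. All 9 arrays entered 1 limma 3.58.1 fit (R 4.3.3; 6 residual degrees of freedom, two-sided, Benjamini-Hochberg over all 12018 genes), tested on simulated data. Named genes were those at least 2-fold changed, the 5 highest and 5 lowest members per comparison, and the c ring, Sdh and Ndufa4 genes; others are named for their probes, promoters or scalings. Of other lists, Slc2a3 was named for its size of difference, and Hk1, Pfkm, Nrf1, Gabpa, Yy1, Myc and the erythroid genes after their values were seen. The members and lists were chosen with earlier results of these data known. Alternatives were other scalings, filters, blocks, probe rules and left-out arrays. Single values of 1 member are not reported here; it is counted in all totals.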

Additional observations from a re-analysis of the deposited data

How the results depend on the processing

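The scaling of the arrays decided how many of the 70 genes were called higher than Mock. In EBF1ΔC the count was 57, against 34 with quantile normalization, 34 with normexp and quantile and 35 with the authors' deposited values, and in EBF1wt it was 57, against 34, 36 and 34. The median differences were then 0.194, 0.221 and 0.22 log2 in EBF1ΔC and 0.223, 0.246 and 0.222 in EBF1wt, and with median scaling they were 0.981, 1.126 and, between EBF1ΔC and EBF1wt, -0.137. Asking for at least 2-fold left 2 in each comparison with Mock. The count lower than Mock was 0 and became 1 (quantile normalization), 3 (mean of the probes) and 1 (only the 2 groups compared) in EBF1ΔC, and 1 (normexp and quantile), 1 (quantile normalization), 2 (authors' deposited values) and 2 (mean of the probes) in EBF1wt. Leaving out each array gave 46 to 58 genes higher in EBF1ΔC and 50 to 57 in EBF1wt, 0 to 1 lower in EBF1ΔC (1 without EBF1wt replicate 2) and 0 in EBF1wt. Sdha turned to -0.169 and -0.146 log2 with the mean of its 3 probes, since the clone probe is the lower of them. Atp5e in EBF1ΔC turned to -0.011 with quantile normalization, and the cause was not tested. The replicate numbers did not pair the samples (same-number correlations of deviations between -0.177 and 0.121), and a replicate block gave 54 genes higher in each comparison with Mock and 0 between EBF1ΔC and EBF1wt. The slide as a random block left 57 genes higher in each comparison with Mock. A fixed slide block was run between EBF1ΔC and EBF1wt, where the members stayed at 0 and all genes called fell to 0.582% higher and 0.607% lower, against 4.12% and 4.96%. Precision rests on 3 arrays per group; all 70 genes were well above background on all 9 arrays.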
